A study of Mus musculus with 16 samples.

Results

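Leukotrienes and prostaglandins are lipid mediators made from arachidonic acid, and the 10 genes described here encode enzymes that make them and receptors for the cysteinyl leukotrienes. The genes are Pla2g4a, Alox5, Alox5ap, Lta4h, Ltc4s, Ptgs1, Ptgs2, Hpgds, Cysltr1 and Cysltr2. They were listed by name, and a gene was taken as measured where a probe set of the array was annotated with its symbol alone. This held for 9 of the 10 genes, each with 1 probe set, among 19938 genes in all. Ptgs1, which encodes cyclooxygenase-1, had no such probe set in the annotation used and is not analysed here.

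Gene expression was measured in whole mouse lung on 16 Affymetrix whole-transcript arrays, 4 per group. The groups were Vldlr knockout (KO, Vldlr-/-) mice given house dust mite extract (HDM), KO mice given saline, wild-type (WT) B6129SF2/J mice given HDM and WT B6129SF2/J mice given saline. Vldlr encodes the very low density lipoprotein receptor, and HDM is an allergen used to produce asthma-like inflammation in mice. HDM (25 µg) or saline went into the nose in 10 µl on 5 days a week for 6 weeks. The labels call the 4 samples of a group biological replicates. The strain of the KO mice, the age of the mice, the disrupted part of Vldlr and whether an RNA sample came from 1 animal or a pool are given by no source used here. Levels are RMA values on the log2 scale, and levels of different genes are not comparable with each other on this array.

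Arachidonic acid is freed from membranes by cytosolic phospholipase A2. In leukocytes 5-lipoxygenase, helped by its activating protein, turns it into leukotriene A4, from which one enzyme makes the neutrophil attractant leukotriene B4 and another the cysteinyl leukotrienes, which contract airway smooth muscle and make vessels leak. Cyclooxygenases turn the same acid into prostaglandin H2, from which separate synthases make prostaglandins D2, E2 and I2 and thromboxane. In allergic airways the main cells that make cysteinyl leukotrienes are eosinophils, mast cells and macrophages.

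Vldlr was lower on all KO arrays, at 9.40 to 9.91 in KO HDM lungs against 10.27 to 10.92 in WT HDM lungs, and at 9.77 to 9.90 in KO saline lungs against 10.50 to 10.75 in WT saline lungs. The array medians lay between 8.78 and 8.85, and no pair of arrays was identical. The markers of lung tissue were present in every group, with Sftpb, a surfactant protein of alveolar type 2 cells, between 13.0 and 13.5 and Cdh5, the cadherin of endothelial cells, between 12.7 and 13.3. The array KO HDM 4 stood apart from KO HDM 1 to 3, with a mean level of 6 eosinophil markers of 9.07 against 9.44 to 9.73. WT saline 2 and 3 were the highest of their group on that list, at 8.59 and 8.44 against 8.33 on each of WT saline 1 and 4.

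In both genotypes the RNA of 5-lipoxygenase and of the first cysteinyl leukotriene receptor was higher after HDM, and that of cyclooxygenase-2 was lower. Proteins and lipid mediators were not measured on these arrays. Alox5 rose by 0.64 and Cysltr1 by 0.65 in KO lungs, and Ptgs2 fell by 0.52. In WT lungs Alox5 rose by 0.43 and Cysltr1 by 0.42, and Ptgs2 fell by 0.49. Of the 9 measured genes, 2 passed as higher and 2 as lower in KO lungs, the second lower gene being Ltc4s. Among all genes 8.84% passed in KO lungs, 4.96% higher and 3.88% lower. In WT lungs 2 of the 9 passed as higher and 1 as lower, against 17.6% of all genes, 7.86% higher and 9.72% lower. A gene passed at a limma adjusted p under 0.05 (Benjamini-Hochberg over all 19938 genes). In whole lung, more cells of a type and more RNA per cell cannot be told apart. The median change of the 9 genes was 0.09 in KO lungs and 0.11 in WT lungs, and that of all genes was -0.03 and -0.05 in the same comparisons.

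**Figure D1:**
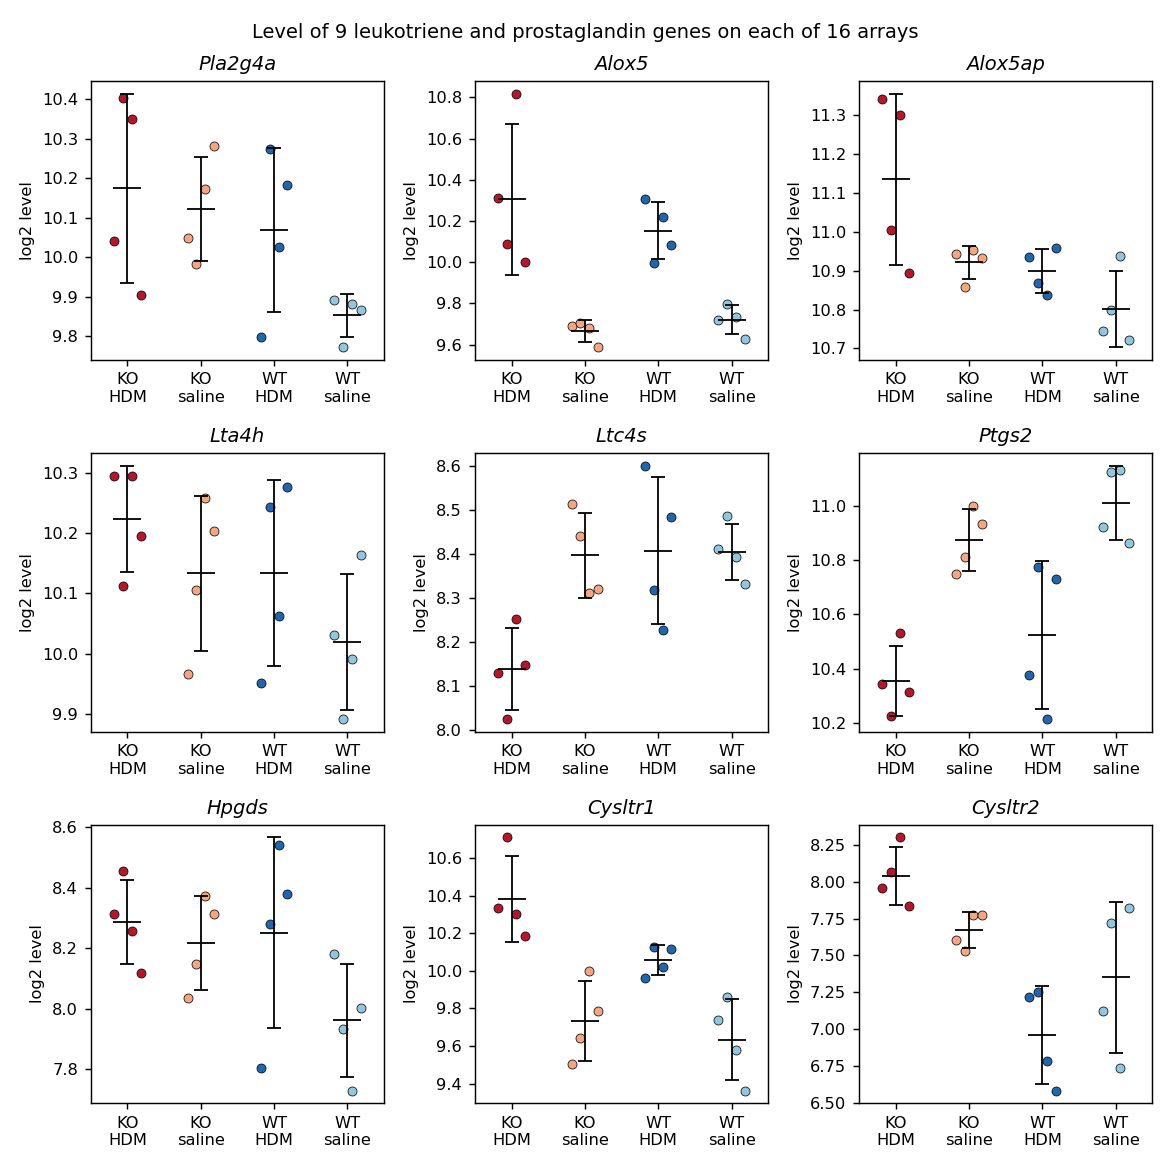
Log2 level (vertical axis, a separate scale per gene) of the 9 measured genes on the 16 arrays, 1 point per array, with the mean and SD of each group of 4 as a line and bar. Alox5 and Cysltr1 lie higher under HDM than under saline in both genotypes, Ptgs2 lies lower, and all KO HDM arrays lie above all WT HDM arrays for Cysltr2.

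Pla2g4a encodes cytosolic phospholipase A2, which starts the pathway by freeing arachidonic acid. Its level was 10.04, 10.40, 10.35 and 9.90 on KO HDM arrays 1 to 4 and 10.05, 9.98, 10.17 and 10.28 on the KO saline arrays, so the groups overlapped. In WT lungs it was 9.80, 10.27, 10.03 and 10.18 under HDM and 9.89, 9.77, 9.88 and 9.87 under saline, where 3 of the 4 HDM arrays were above all saline arrays. Neither difference passed. It was 0.05 in KO lungs (95% CI -0.18 to 0.28, limma adjusted p = 0.816) and 0.22 in WT lungs (95% CI -0.01 to 0.45, limma adjusted p = 0.166). The spread between arrays was wider under HDM in WT lungs, with an SD of 0.21 against 0.05 under saline.

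Alox5 encodes 5-lipoxygenase, the enzyme that commits arachidonic acid to leukotrienes. It was at 10.31, 10.09, 10.82 and 10.00 on KO HDM arrays 1 to 4, against 9.69, 9.71, 9.68 and 9.59 on the KO saline arrays. All KO HDM arrays were above all KO saline arrays, and KO HDM 3 was the highest of the 16. The rise was 1.56-fold, a difference of 0.64 with an SE of 0.12 (limma adjusted p = 0.00384). WT HDM arrays had 10.31, 10.00, 10.22 and 10.08, against 9.72, 9.80, 9.74 and 9.63 on WT saline arrays, again without overlap. The rise in WT lungs was 1.35-fold (0.43, SE 0.12, limma adjusted p = 0.0272). This call ended without WT saline 1 (adjusted p = 0.0581), WT saline 3 (0.0522), WT saline 4 (0.0606), WT HDM 1 (0.0594) or WT HDM 3 (0.0518), with changes between 0.38 and 0.44, and without WT saline 2 and 3 together (0.48, adjusted p = 0.0947). The HDM change in KO lungs minus that in WT lungs was 0.21 (95% CI -0.16 to 0.58, limma adjusted p = 0.61).

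The 250 bases before the RefSeq start of Alox5 (GRCm38.p6, chr6:116461179-116461428, minus strand) are shown because Alox5 rose in both genotypes. Capitals mark a GC box (GGGCGG), a binding motif of Sp1 family factors, 30 to 35 bases before the start.
Alox5: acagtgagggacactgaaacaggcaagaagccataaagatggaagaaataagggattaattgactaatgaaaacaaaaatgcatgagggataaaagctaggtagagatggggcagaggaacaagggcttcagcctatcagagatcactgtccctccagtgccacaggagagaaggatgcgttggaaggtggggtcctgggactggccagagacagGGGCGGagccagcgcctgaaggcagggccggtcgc
This motif was in 32.7% of the 32851 mouse promoter windows of the same length, on either strand. Other motifs searched on both strands, STAT6 (TTC and GAA with any 4 bases between), PU.1 (GAGGAAG) and C/EBP (TTGCNNAA), had no match in the window. They were in 5.85%, 10.6% and 9.56% of all windows.

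Alox5ap encodes the 5-lipoxygenase activating protein, a membrane protein that presents arachidonic acid to the enzyme. It was at 11.34, 11.00, 11.30 and 10.89 in KO HDM lungs and 10.94, 10.86, 10.95 and 10.93 in KO saline lungs. KO HDM 1 and 3 were the highest of the 16 arrays, KO HDM 2 was also above all KO saline arrays, and KO HDM 4 lay within them. The difference was 0.21 and did not pass (SE 0.08, limma adjusted p = 0.129). Without KO HDM 4 it was 0.29 and passed (adjusted p = 0.0169), and it passed with array weights too (0.28, adjusted p = 0.0263). In WT lungs the HDM arrays had 10.93, 10.87, 10.84 and 10.96, against 10.74, 10.80, 10.94 and 10.72 on the saline arrays, and the difference of 0.10 did not pass (95% CI -0.08 to 0.28, limma adjusted p = 0.405).

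Lta4h encodes leukotriene A4 hydrolase, which makes leukotriene B4, a neutrophil attractant. It varied least of the 9 genes, over a range of 0.40 on the 16 arrays. It averaged 10.22 ± 0.09 in KO HDM lungs and 10.13 ± 0.13 in KO saline lungs (SD, n = 4 each). It averaged 10.13 ± 0.15 in WT HDM lungs and 10.02 ± 0.11 in WT saline lungs. The groups overlapped and neither difference passed. It was 0.09 in KO lungs (95% CI -0.08 to 0.26, limma adjusted p = 0.552) and 0.11 in WT lungs (95% CI -0.06 to 0.29, limma adjusted p = 0.325).

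Ltc4s encodes leukotriene C4 synthase, which joins glutathione to leukotriene A4 and so makes the first of the cysteinyl leukotrienes. Its mean over the 16 arrays was at percentile 31.3 of all genes. Ltc4s was at 8.13, 8.02, 8.25 and 8.15 on KO HDM arrays, against 8.51, 8.44, 8.31 and 8.32 on KO saline arrays. All KO HDM arrays were below all KO saline arrays, and the fall was small, by 0.26 (SE 0.08, limma adjusted p = 0.0448). WT HDM arrays had 8.60, 8.32, 8.23 and 8.49, against 8.41, 8.49, 8.39 and 8.33 on WT saline arrays, with full overlap and a difference of 0.00 (95% CI -0.16 to 0.17, limma adjusted p = 0.983). The fall in KO lungs lay near the threshold. It did not pass without KO HDM 1 (adjusted p = 0.0937), KO HDM 2 (0.135), KO HDM 4 (0.0523), KO saline 1 (0.135), KO saline 2 (0.119) or KO saline 4 (0.0573), nor when all probe sets were tested (0.0743) or with the replicate number as a block (0.0500447), and the change lay between -0.30 and -0.22 over the 8 arrays left out in turn. The HDM change in KO lungs minus that in WT lungs was -0.26 (95% CI -0.49 to -0.03, limma adjusted p = 0.254).

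Ptgs2 encodes cyclooxygenase-2, the inducible enzyme that makes prostaglandin H2. It was at 10.34, 10.23, 10.53 and 10.31 on KO HDM arrays, against 10.75, 10.81, 11.00 and 10.93 on KO saline arrays. All KO HDM arrays were below all KO saline arrays, and the gene fell by 0.52 (SE 0.11, limma adjusted p = 0.00668), a 1.43-fold decrease. WT HDM arrays had 10.38, 10.78, 10.22 and 10.73, against 10.92, 11.12, 11.13 and 10.86 on WT saline arrays. These groups did not overlap either, but WT HDM 2 and 4 lay close to the saline arrays and WT HDM 1 and 3 lay within the KO HDM range or just below it. The gene fell by 0.49 in WT lungs (SE 0.11, limma adjusted p = 0.00811). It did not pass without WT saline 2 and 3 (-0.37, adjusted p = 0.121). The HDM change in KO lungs minus that in WT lungs was -0.03 (95% CI -0.36 to 0.30, limma adjusted p = 0.941).

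The window of the same length before the start of Ptgs2 (GRCm38.p6, chr1:150099781-150100030, plus strand) is shown because Ptgs2 was the 1 gene of the 9 that fell in both genotypes. Capitals mark a GC box 165 to 170 bases before the start and a C/EBP motif 62 to 69 bases before it, which reads as the motif on both strands.
Ptgs2: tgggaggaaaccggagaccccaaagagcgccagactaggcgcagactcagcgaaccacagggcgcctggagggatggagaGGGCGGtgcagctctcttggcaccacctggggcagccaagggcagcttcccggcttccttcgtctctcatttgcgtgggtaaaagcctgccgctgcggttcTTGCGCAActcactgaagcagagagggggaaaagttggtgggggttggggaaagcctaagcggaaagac
The matches describe the letters only.

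Hpgds encodes the hematopoietic prostaglandin D synthase of mast cells and some T cells. It was at 8.31, 8.46, 8.26 and 8.12 in KO HDM lungs and 8.04, 8.15, 8.37 and 8.31 in KO saline lungs. It was at 7.81, 8.28, 8.54 and 8.38 in WT HDM lungs and 8.18, 7.93, 7.73 and 8.0 in WT saline lungs. WT HDM 2, 3 and 4 were above all WT saline arrays and WT HDM 1 was below 3 of them. The differences were 0.07 in KO lungs (95% CI -0.21 to 0.34, limma adjusted p = 0.794) and 0.29 in WT lungs (SE 0.13, limma adjusted p = 0.124). The WT difference passed without WT HDM 1 (0.44, adjusted p = 0.0123) and with array weights (0.38, adjusted p = 0.0353).

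Cysltr1 encodes the first receptor for cysteinyl leukotrienes, the target of montelukast, found on smooth muscle and many leukocytes. It was at 10.33, 10.71, 10.30 and 10.18 on KO HDM arrays, against 9.50, 9.64, 10.00 and 9.79 on KO saline arrays. The groups did not overlap and the rise was 1.57-fold (0.65, SE 0.12, limma adjusted p = 0.00257). WT HDM arrays had 9.96, 10.13, 10.02 and 10.11, against 9.74, 9.86, 9.58 and 9.36 on WT saline arrays, also without overlap, a rise of 1.34-fold (0.42, SE 0.12, limma adjusted p = 0.0254). The array with the highest Cysltr1 was KO HDM 2, whereas Alox5 was highest on KO HDM 3, so the 2 genes did not follow the same order within that group. The WT rise did not pass without WT saline 3 (adjusted p = 0.0599), WT saline 4 (0.0717), WT HDM 2 (0.0613) or WT HDM 4 (0.0621), at changes of 0.33 to 0.40, nor without WT saline 2 and 3 (0.51, adjusted p = 0.0551). The HDM change in KO lungs minus that in WT lungs was 0.23 (95% CI -0.13 to 0.59, limma adjusted p = 0.553).

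Cysltr2 encodes the second cysteinyl leukotriene receptor, found among others on endothelial cells and eosinophils. It varied most of the 9 genes, over a range of 1.72, and was the one with the clearest difference between genotypes. Its signal was low, as its mean over the 16 arrays was the lowest of the 9, at percentile 15.7 of all genes. KO HDM arrays had 7.96, 8.07, 8.30 and 7.84, and KO saline arrays had 7.61, 7.53, 7.77 and 7.78, without overlap. WT HDM arrays had 7.22, 7.25, 6.79 and 6.58, and WT saline arrays had 7.12, 7.72, 6.74 and 7.82. The WT saline arrays thus split into WT saline 2 and 4, near the KO saline range, and WT saline 1 and 3, near the WT HDM range. The HDM difference was 0.37 in KO lungs (SE 0.20, limma adjusted p = 0.278) and -0.39 in WT lungs (SE 0.20, limma adjusted p = 0.162), and neither passed. In a fit of only the KO groups it passed (0.37, adjusted p = 0.0374), and the WT difference passed without WT saline 3 (-0.59, adjusted p = 0.0371).

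Between genotypes under HDM, Cysltr2 was 2.11-fold higher in KO HDM lungs, and Ltc4s was slightly lower. As the strain of the KO mice is not known, strain and loss of the receptor cannot be told apart in any comparison between genotypes. Of the 9 genes, 1 was higher and 1 lower, against 11.7% of all genes, 5.84% higher and 5.83% lower. All KO HDM arrays were above all WT HDM arrays for Cysltr2, with means of 8.04 ± 0.20 in KO HDM lungs and 6.96 ± 0.33 in WT HDM lungs (SD, n = 4 each, difference 1.08, SE 0.20, limma adjusted p = 0.00346). This comparison shares its arrays with the HDM comparisons above. For Ltc4s the groups overlapped at 1 array, KO HDM 3 at 8.25 lying above WT HDM 3 at 8.23. Its difference was -0.27 (SE 0.08, limma adjusted p = 0.0318). The Cysltr2 difference passed without each KO HDM or WT HDM array in turn (0.95 to 1.18). That of Ltc4s did not pass without KO HDM 1 (adjusted p = 0.0814), KO HDM 2 (0.0959), WT HDM 1 (0.0875) or WT HDM 4 (0.0873), nor in a fit of only these groups (0.115).

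Cysltr1 had no overlap between KO HDM and WT HDM arrays and a difference of 0.33 that did not pass (SE 0.12, limma adjusted p = 0.0877). Alox5ap differed by 0.24 (SE 0.08, limma adjusted p = 0.0761). Both passed without KO HDM 4, Alox5ap at 0.32 (adjusted p = 0.00824) and Cysltr1 at 0.39 (adjusted p = 0.0374). Then 4 of the 9 genes passed, against 19.2% of all genes. Alox5 differed by 0.15 (95% CI -0.11 to 0.41, limma adjusted p = 0.477), and by -0.02 without KO HDM 3.

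The promoter window of Cysltr2 (GRCm38.p6, chr14:73049115-73049364, minus strand) is shown because this gene separated the genotypes under HDM. Capitals mark a match to the STAT6 motif 124 to 133 bases before the start. STAT6 acts downstream of the type 2 cytokines interleukin-4 and interleukin-13. The motif was in 5.85% of all windows, and the match describes the letters only.
Cysltr2: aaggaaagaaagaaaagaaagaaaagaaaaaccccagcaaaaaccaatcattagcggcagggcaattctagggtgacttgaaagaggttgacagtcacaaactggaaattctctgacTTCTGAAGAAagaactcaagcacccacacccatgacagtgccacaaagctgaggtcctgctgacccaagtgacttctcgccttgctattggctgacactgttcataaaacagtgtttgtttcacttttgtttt
Windows were given for 8 of the 10 genes, not for Alox5ap and Cysltr1. The STAT6 motif was in that of Cysltr2 alone among them, and the windows of Ltc4s, Lta4h and Pla2g4a held none of the 4 motifs.

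Between KO and WT lungs under saline none of the 9 genes passed, against 0.231% of all genes, 0.0903% higher and 0.14% lower. The smallest p of the 9 was that of Pla2g4a, at 10.12 ± 0.13 in KO saline lungs and 9.85 ± 0.05 in WT saline lungs without overlap (0.27, limma adjusted p = 0.521). Cysltr2 differed by 0.32 (95% CI -0.09 to 0.73) and Hpgds by 0.26 (95% CI -0.02 to 0.53), and the other differences lay between -0.14 and 0.12. The HDM change differed between genotypes for none of the 9 genes, against 0.802% of all genes (0.356% with a higher and 0.446% with a lower change in KO lungs). The smallest p-values were those of Cysltr2 and Ltc4s. The HDM change of Cysltr2 was 0.76 higher in KO lungs than in WT lungs (95% CI 0.18 to 1.34, limma adjusted p = 0.19).

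**Figure D2:**
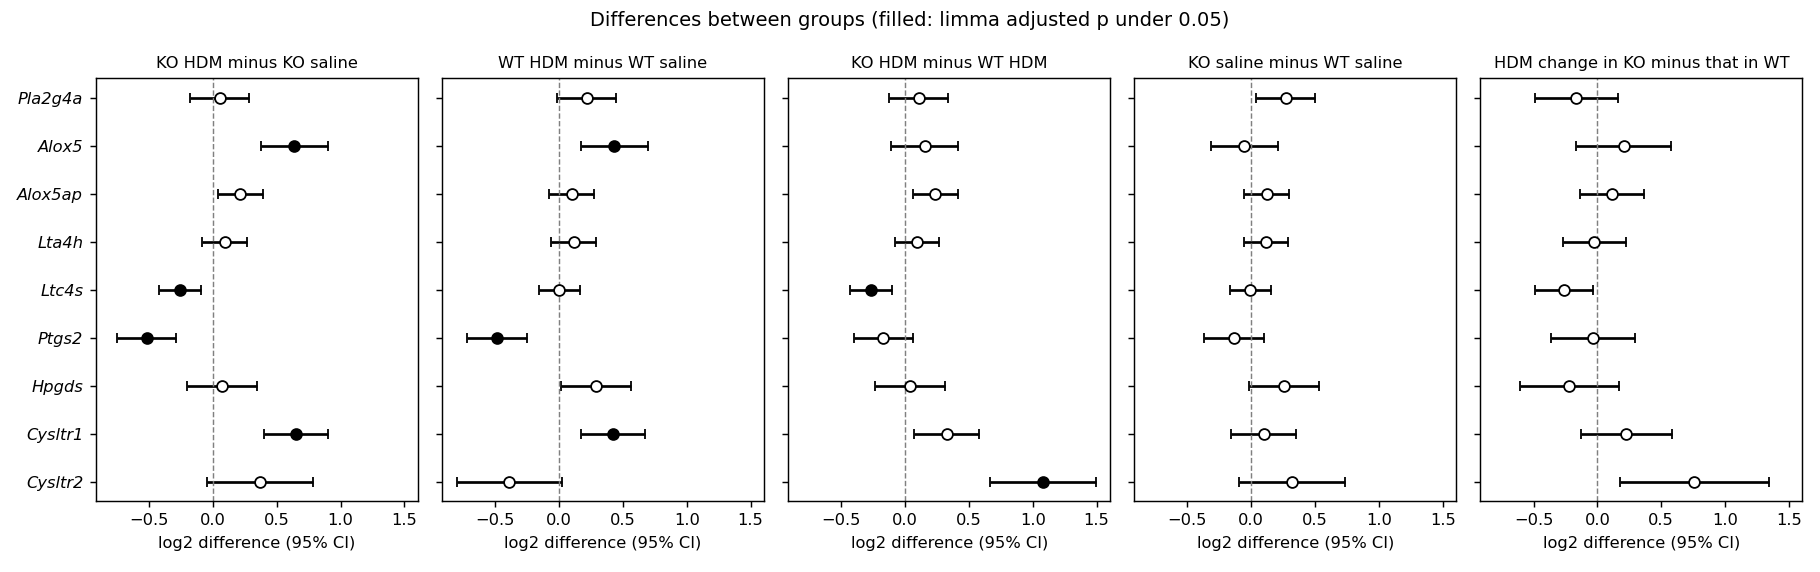
Log2 difference (horizontal axis) with its 95% confidence interval from limma for the 9 genes in 5 comparisons, filled where the adjusted p was under 0.05. Ptgs2 is near -0.5 and Alox5 and Cysltr1 are between 0.4 and 0.7 in both HDM comparisons, while Cysltr2 stands at 1.08 for KO HDM minus WT HDM.

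Further genes of eicosanoid metabolism were read from lists of 54 genes, of which 50 were measured. Under HDM 11 of the 50 were higher and 1 lower in KO lungs, against 4.96% and 3.88% of all genes. In WT lungs 11 were higher and 4 lower, against 7.86% and 9.72% of all genes. The median change of the 50 was 0.03 in KO lungs and -0.01 in WT lungs.

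On the prostaglandin side, of 7 synthases downstream of the cyclooxygenases, 2 rose in KO lungs, and 3 rose and 1 fell in WT lungs, where the 1 that fell was Ptges3. Of all genes, 4.96% rose in KO lungs, and 7.86% rose and 9.72% fell in WT lungs. Ptges, the inducible prostaglandin E synthase, was at 10.37, 10.71, 10.89 and 10.40 on KO HDM arrays, against 9.99 to 10.10 in KO saline lungs, and rose by 0.56 (SE 0.11, limma adjusted p = 0.0041). In WT HDM lungs it was at 10.52, 10.22, 10.66 and 10.72, against 9.92 to 10.07 in WT saline lungs, a rise of 0.53 (limma adjusted p = 0.00484). In both genotypes all HDM arrays were above all saline arrays.

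Tbxas1, thromboxane A synthase, rose by 0.75 in KO lungs (limma adjusted p = 0.00168) and by 0.76 in WT lungs (limma adjusted p = 0.00177), and KO HDM 4 at 9.66 was the lowest HDM array. Ptgis, the prostacyclin synthase of vessel walls, differed by -0.03 in KO lungs, where it did not pass, and rose by 0.38 in WT lungs (limma adjusted p = 0.0237). The WT rise did not pass without WT saline 1 (adjusted p = 0.0633), 2 (0.0544) or 3 (0.0548), or WT HDM 1 (0.0525), 2 (0.0692) or 4 (0.0527), at 0.33 to 0.38. Ptgis was lower in KO HDM lungs, at 10.46 ± 0.23, than in WT HDM lungs, at 11.02 ± 0.21 (-0.55, limma adjusted p = 0.00492). That call ended in a fit of only these groups (limma adjusted p = 0.0518). Ptges3, a prostaglandin E synthase that is also a cochaperone of Hsp90, fell by 0.43 in WT lungs (limma adjusted p = 0.00629) and was at -0.18 in KO lungs without passing.

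Hpgd, which breaks prostaglandins down, was at 12.83, 12.93, 12.78 and 13.25 on KO HDM arrays, against 13.44 to 13.61 in KO saline lungs. It fell by 0.60 (SE 0.09, limma adjusted p = 0.00069) without overlap, and KO HDM 4 was the nearest to saline. In WT lungs its difference was -0.25 and did not pass (limma adjusted p = 0.0723). It was the only one of 4 genes of prostanoid breakdown and transport that passed in any comparison.

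Of 9 prostanoid receptors, 3 rose in KO lungs and 1 in WT lungs, against 4.96% and 7.86% of all genes. Ptgir, the prostacyclin receptor, rose by 0.72 in KO lungs (limma adjusted p = 0.00293) and by 0.45 in WT lungs (limma adjusted p = 0.0322), where WT HDM 4 at 9.61 was above the other WT HDM arrays (8.66 to 9.06) and the groups overlapped. Without WT HDM 4 the WT difference was 0.26 (adjusted p = 0.0605), and the call also ended without WT HDM 3 (0.0542) or WT saline 1 (0.062), 3 (0.084) or 4 (0.0583). Ptger4 and Ptger2, receptors for prostaglandin E2 that raise cyclic AMP, rose in KO lungs by 0.44 (limma adjusted p = 0.00252) and 0.26 (limma adjusted p = 0.00504). Both were higher in KO HDM than in WT HDM lungs, by 0.26 (limma adjusted p = 0.0486) and 0.19 (limma adjusted p = 0.0292). Ptger3, a prostaglandin E2 receptor that lowers cyclic AMP, was at 7.97 to 8.01 in KO HDM lungs and 7.65 to 7.85 in WT HDM lungs (0.22, limma adjusted p = 0.0194). These 3 genotype calls were near the threshold, and Ptger2 and Ptger3 lay below the lowest array median (8.78) on every array. Without KO HDM 1 none passed (Ptger4 0.179, Ptger2 0.06, Ptger3 0.0605 as adjusted p), nor without KO HDM 3 (0.137, 0.0989 and 0.057 in the same order), and others ended without KO HDM 2 (Ptger2, 0.0633), WT HDM 1 (Ptger4, 0.0947), WT HDM 2 (Ptger4, 0.14, and Ptger3, 0.0668), WT HDM 3 (Ptger2, 0.0651) or WT HDM 4 (Ptger4, 0.0662, and Ptger2, 0.0653).

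On the leukotriene side, Cyp4f18, a cytochrome P450 of mouse neutrophils that inactivates leukotriene B4, changed most among 9 genes of leukotriene handling. It was at 11.39, 11.27, 11.52 and 10.75 on KO HDM arrays, against 9.48 to 9.84 in KO saline lungs, and rose 2.95-fold (1.56, SE 0.19, limma adjusted p = 6.51e-05). In WT lungs it was at 10.54, 10.22, 10.60 and 9.78 under HDM, against 9.07 to 9.70 under saline, and rose 1.85-fold (limma adjusted p = 0.00524). It was 1.93-fold higher in KO HDM than in WT HDM lungs (limma adjusted p = 0.00552). Ltb4r1, the high-affinity receptor for leukotriene B4, rose by 0.45 in KO lungs (limma adjusted p = 0.00604), was at 0.13 in WT lungs without passing, and was 0.31 higher in KO HDM than in WT HDM lungs (limma adjusted p = 0.0451). The last call ended without KO HDM 1 (adjusted p = 0.143), KO HDM 3 (0.155), WT HDM 2 (0.13) or WT HDM 4 (0.13), at 0.22 to 0.27.

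Cotl1, an actin-binding protein that also binds 5-lipoxygenase, rose by 0.45 in KO lungs (limma adjusted p = 0.00761). Dpep2, a dipeptidase that turns leukotriene D4 into E4, was at 9.88, 9.85, 9.59 and 9.63 in KO HDM lungs, within or around the KO saline range of 9.67 to 9.84. In WT lungs it rose by 0.41 (limma adjusted p = 0.00426), to 9.87 to 10.17 under HDM against 9.40 to 9.67 under saline. Mgst2, a microsomal relative of leukotriene C4 synthase that can also make leukotriene C4, rose by 0.22 in WT lungs (limma adjusted p = 0.00923) and was lower in KO HDM than in WT HDM lungs (-0.23, limma adjusted p = 0.0087). Its relative Mgst3 fell by 0.26 in WT lungs (limma adjusted p = 0.0394), a call that ended without WT saline 1 (0.0518), 2 (0.0939), 3 (0.0868) or 4 (0.0661), or WT HDM 3 (0.104) or 4 (0.112), at -0.29 to -0.19.

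Among 6 other lipoxygenases 1 passed, in KO lungs and in WT lungs, against 8.84% and 17.6% of all genes. Alox15, the enzyme of eosinophils and alternatively activated macrophages that makes 15- and 12-hydroxy products in place of leukotrienes, was at 11.46 to 12.41 on KO HDM arrays, 8.79 to 9.20 on KO saline arrays, 10.84 to 11.38 on WT HDM arrays and 8.92 to 9.93 on WT saline arrays. It rose by 2.91 in KO lungs (limma adjusted p = 2.92e-07) and by 1.68 in WT lungs (limma adjusted p = 0.000161), without overlap in either genotype. It was 1.72-fold higher in KO HDM than in WT HDM lungs (0.78, SE 0.21, limma adjusted p = 0.0226), a call that ended without KO HDM 1 (0.76, adjusted p = 0.0655), KO HDM 3 (0.63, adjusted p = 0.0845) or WT HDM 2 (0.68, adjusted p = 0.0761).

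Among 13 other phospholipases A2, 2 rose in KO lungs, and 3 rose and 2 fell in WT lungs. Of all genes, 4.96% rose in KO lungs, and 7.86% rose and 9.72% fell in WT lungs. Pla2g4c, a calcium-independent cytosolic form, was at 8.66, 8.71, 9.09 and 8.31 in KO HDM lungs, against 7.80 to 7.97 in KO saline lungs, and rose 1.77-fold (limma adjusted p = 0.00209). It was at 7.60, 7.94, 7.83 and 8.43 in WT HDM lungs and 7.59 to 7.75 in WT saline lungs, and was 0.74 higher in KO HDM than in WT HDM lungs (limma adjusted p = 0.0056). Pla2g7, the platelet-activating factor acetylhydrolase of macrophages, rose by 1.04 in KO lungs (limma adjusted p = 0.00786) and by 0.71 in WT lungs (limma adjusted p = 0.0408), with KO HDM 4 at 10.77 against 11.72 to 12.08 on the other KO HDM arrays. The WT rise of Pla2g7 did not pass without WT saline 1 (0.0878), 3 (0.0651) or 4 (0.0984), or WT HDM 3 (0.1) or 4 (0.103), as adjusted p. The secreted form Pla2g5 fell by 0.35 in WT lungs (limma adjusted p = 0.0157).

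The other phospholipases that passed in WT lungs changed little. Pla2g1b, a secreted form first known from the pancreas, rose by 0.32 (limma adjusted p = 0.0289), a call that ended without WT saline 1 (0.0676), 2 (0.0627) or 4 (0.0522), or WT HDM 1 (0.0513) or 2 (0.0694). Pla2g6, a calcium-independent form, rose by 0.18 (limma adjusted p = 0.0404), a call that ended without WT saline 1 (0.0698), 3 (0.119) or 4 (0.0653), or WT HDM 2 (0.0896) or 4 (0.11). Pla2g4e, a cytosolic form, fell by 0.18 (limma adjusted p = 0.0484), at levels below the lowest array median (8.78). Its call held without WT HDM 3 and ended without any other array of the WT groups (adjusted p = 0.0536 to 0.135).

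**Figure D3:**
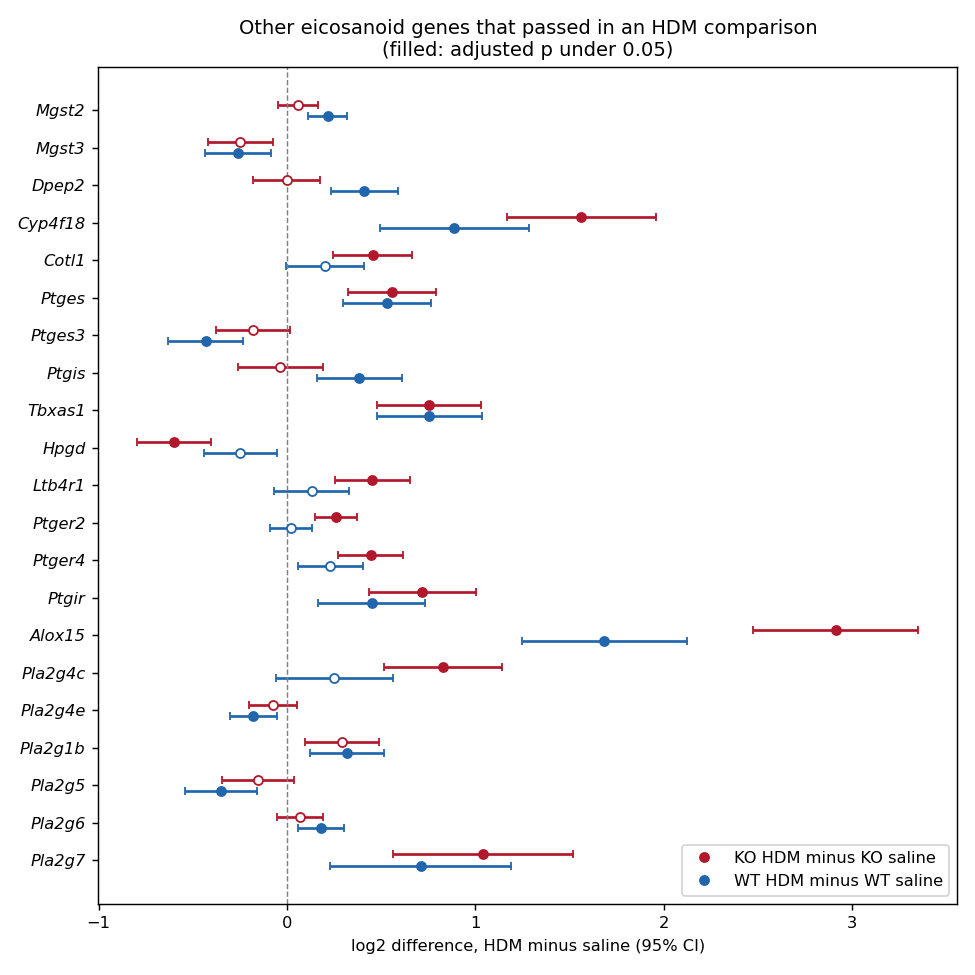
Log2 difference between HDM and saline (horizontal axis, 95% confidence interval from limma) in KO lungs (red) and WT lungs (blue) for the 21 further eicosanoid genes that passed in at least 1 of these comparisons, filled where the adjusted p was under 0.05. Alox15, Cyp4f18 and Pla2g7 lie farthest to the right, and Hpgd and Ptges3 farthest to the left.

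In these 50 genes 7 were higher and 2 lower in KO HDM than in WT HDM lungs, against 11.7% of all genes, 5.84% higher and 5.83% lower. None passed by limma between genotypes under saline, against 0.231% of all genes, and none for a difference of the HDM change between genotypes, against 0.802%. The smallest adjusted p of the last comparison was that of Alox15, whose HDM change was 1.23 higher in KO lungs (limma adjusted p = 0.0582). Pla2g4c was the only one of 13 phospholipases, and Ltb4r1 the only one of 2 other leukotriene receptors, that passed between the genotypes under HDM.

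Markers of leukocytes moved on the same arrays. The mean level of 6 eosinophil markers was 9.07 to 9.73 in KO HDM lungs, 8.34 to 8.41 in KO saline lungs, 8.70 to 9.10 in WT HDM lungs and 8.33 to 8.59 in WT saline lungs. Of these markers 4 rose in KO lungs and 2 in WT lungs, against 4.96% and 7.86% of all genes, shares that also apply to the next list. The mean of 10 mast cell and basophil markers was 8.55 to 9.24 in KO HDM lungs, 7.55 to 7.71 in KO saline lungs, 7.66 to 8.61 in WT HDM lungs and 7.63 to 8.22 in WT saline lungs, with 5 higher in KO lungs and 1 in WT lungs.

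For 6 markers of monocytes and interstitial macrophages the mean was 10.39 to 10.89 in KO HDM lungs, 10.12 to 10.36 in KO saline lungs, 10.25 to 10.63 in WT HDM lungs and 10.06 to 10.25 in WT saline lungs (4 higher and 1 lower in KO, 2 higher in WT). For 6 alveolar macrophage markers it was 10.74 to 11.17 in KO HDM lungs, 10.69 to 10.78 in KO saline lungs, 10.90 to 11.31 in WT HDM lungs and 10.45 to 10.72 in WT saline lungs. For 6 neutrophil markers it was 8.81 to 9.40 in KO HDM lungs, 8.84 to 8.92 in KO saline lungs, 8.71 to 8.91 in WT HDM lungs and 8.61 to 8.96 in WT saline lungs. These markers went both ways, with Retnlg higher and S100a8, S100a9 and Mmp8 lower in KO lungs, and Retnlg higher and S100a8 and S100a9 lower in WT lungs. Of the 6 alveolar macrophage markers, 1 rose in KO lungs and 3 in WT lungs. Of all genes, 4.96% rose and 3.88% fell in KO lungs, and 7.86% rose and 9.72% fell in WT lungs. KO HDM 3, the array with the highest Alox5, Ltb4r1 and Cyp4f18, was also the highest on the eosinophil, monocyte and neutrophil lists, and KO HDM 2, the highest for Cysltr1, was the highest on the mast cell list. The 6 lung tissue markers averaged 12.22 to 12.70 in KO HDM lungs, 12.59 to 12.66 in KO saline lungs, 12.66 to 12.84 in WT HDM lungs and 12.43 to 12.72 in WT saline lungs. Of these 6, Sftpb, Scgb1a1 and Cdh5 were lower in KO HDM than in WT HDM lungs, against 5.83% of all genes. Ltc4s, Mgst2 and Ptgis were the lower eicosanoid genes of that comparison. The part of these cells in the changes was not tested.

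Circadian clock genes differed on the same arrays. Of 9 clock genes 1 rose in KO lungs, and 6 rose and 1 fell in WT lungs. Of all genes, 4.96% rose in KO lungs, and 7.86% rose and 9.72% fell in WT lungs. Their mean was 10.06 to 10.34 in KO HDM lungs, 9.99 to 10.21 in KO saline lungs, 10.44 to 10.77 in WT HDM lungs and 10.08 to 10.17 in WT saline lungs. With this mean as a covariate Alox5 in WT lungs was at 1.01 and passed, while Cysltr1 (0.27, adjusted p = 0.717) and Ptgs2 (-0.85, adjusted p = 0.0513) in WT lungs and Cysltr2 between genotypes under HDM (1.27, adjusted p = 0.515) did not pass. With this covariate 1.89% of all genes passed in WT lungs, against 17.6% without it, and 0.0201% between genotypes under HDM, against 11.7%. The SE of Cysltr2 between genotypes under HDM was 0.38 with the covariate and 0.20 without it. HDM and the clock level moved together in WT lungs, as did genotype and the clock level under HDM. Their parts in these differences cannot be told apart.

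**Figure D4:**
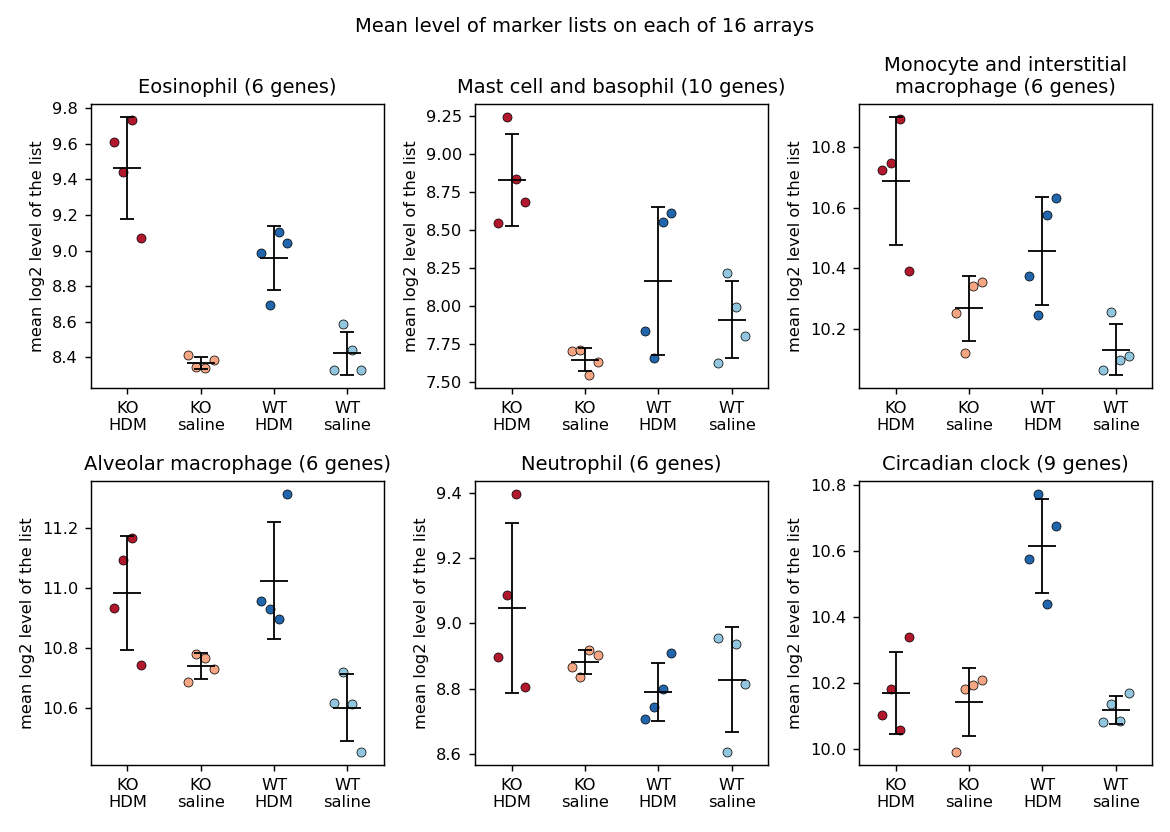
Mean log2 level of 6 marker lists (vertical axis, a separate scale per list) on the 16 arrays, 1 point per array, with the mean and SD of each group of 4. The eosinophil list lies between 9.07 and 9.73 on KO HDM arrays and between 8.70 and 9.10 on WT HDM arrays, and the clock list is higher on all WT HDM arrays than on all others.

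The genes whose levels most resembled those of a changed member were found by Pearson correlation over the 16 arrays, which share their groups, so that this is a description of these arrays. For Alox5 they were Cln3 (r = 0.97), Aqp9 (r = 0.94) and Efhd2 (r = 0.94). For Cysltr1 they were Hnrnpm (r = 0.94), Ammecr1 (r = 0.94) and Phka1 (r = 0.93). For Ptgs2 they were Ube2l6 (r = 0.93), Stox1 (r = 0.93) and B4galt4 (r = 0.90). For Ltc4s they were Nlrp3 (r = 0.90), Ttc34 (r = 0.90) and Coro6 (r = 0.84), and for Cysltr2 Rps2 (r = 0.90), Nlrp1c-ps (r = 0.86) and Faim (r = 0.84).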

How the data were processed

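The authors deposited 1 log2 value per probe set and array. The submitters' processing notes name Affymetrix Expression Console and RMA, and no source used here gives versions or a genome build. The table held 35556 probe sets, of which 21789 had 1 gene symbol in the platform annotation, 1621 several and 12146 none, and 21698 matched a RefSeq gene (GRCm38.p6) by gene ID, and 0 symbols changed. The probe set with the highest mean was kept per gene, leaving 19938 genes. Linear models over all of them used R 4.3.3 and limma 3.58.1 (eBayes), with 4 group means, 12 residual degrees of freedom, two-sided, with Benjamini-Hochberg adjustment within a comparison. The fit was tested on simulated data. Intervals are 95%. SE is limma's and SD is between arrays of a group. The number of arrays limits precision. Promoter windows came from RefSeq (GRCm38.p6). All 9 measured genes were named, and of other eicosanoid genes those that passed in at least 1 comparison. The plan also allowed genes with 1 of the 2 smallest p-values of their list, but none was named on that ground alone. The members and lists were chosen with earlier results of these data known. Alternatives were other normalizations, filters on low levels, array weights, other fits, all probe sets, probe sets averaged per gene, the replicate block, the clock level as a covariate, a 1.5-fold minimum and leaving out arrays.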

Additional observations from a re-analysis of the deposited data

Results flagged for a closer look

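Of 124 groups of 4 arrays examined for the 9 measured genes and the 22 further eicosanoid genes that passed, 3 held an array far from the other arrays of its group by Dixon's 95% critical value, and chance marks about 1 in 20 groups. Mgst2 was at 8.86 on WT saline 4, against 8.73 to 8.74 on the other WT saline arrays. Cotl1 was at 9.74 on WT saline 1, against 9.95 to 9.99. Ptgir was at 9.09 on KO HDM 4, against 9.27 to 9.29.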

How the results depend on the processing

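Alox5 and Cysltr1 in KO lungs passed under all 20 alternatives run. Of 24 same-numbered pairs, 7 had deviations correlated above 0.1 (range -0.28 to 0.33), and 6 of 16 arrays correlated best with their own number. Differently numbered pairs ranged from -0.39 to 0.39. No test compared the 2 kinds of pair, so whether the replicate numbers pair the samples was not settled. With the replicate number as a block, 3, 3, 2, 0 and 0 of the 9 genes passed, in the order KO HDM against KO saline, WT HDM against WT saline, KO HDM against WT HDM, KO saline against WT saline and the difference of HDM changes, against 4, 3, 2, 0 and 0 without it. Ltc4s in KO lungs was the call lost (-0.26, adjusted p = 0.0500447). Leaving out 1 array gave 3 to 4, 1 to 3 (1 without WT saline 4), 1 to 4 (4 without KO HDM 4), 0 to 0 and 0 to 0. Without WT saline 4, 13.7% of all genes passed in WT lungs, and without KO HDM 4, 19.2% passed between genotypes under HDM. Between genotypes under HDM the 2 calls became 1 with a filter at the 25th percentile of mean level, 0 at the 50th, 1 in a fit of only the groups compared, 1 with all probe sets tested, 0 with the clock covariate and 1 with a 1.5-fold minimum. In the same order 15.9%, 19.3%, 1.96%, 7.19%, 0.0201% and 1.47% of what was tested passed, against 11.7% in the main fit. The 2 filters remove Cysltr2, and the one at the 50th percentile also Ltc4s and Hpgds. The 3 calls in WT lungs became 0 without WT saline 2 and 3, 1 with the clock covariate and 0 with a 1.5-fold minimum, which left 2 of 4 in KO lungs. In the same order 5.3%, 1.89% and 1.29% of all genes passed in WT lungs, against 17.6% in the main fit. With the 1.5-fold minimum 1.76% of all genes passed in KO lungs, against 8.84%. Where the counts fell, the share of all genes mostly fell too, but this share rose under the 2 filters. With the replicate block the count in KO lungs also fell, while 9.23% of all genes passed there, against 8.84%.

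Of the 50 further genes, 12 in KO lungs, 15 in WT lungs and 9 between genotypes under HDM passed. A 1.5-fold minimum gave 7, 4 and 3. WT lungs had 5 without WT saline 2 and 3 and 7 with the clock covariate. The genotypes under HDM had 4 with the filter at the 50th percentile, 1 in a fit of only the groups compared and 0 with the clock covariate. Cyp4f18 was the 1 kept in that fit, where Ptgis (0.0518), Mgst2 (0.0548) and Pla2g4c (0.0632) were among those lost (limma adjusted p). The shares of all genes under these settings are those given above for the 9 genes. Leaving out 1 array gave 12 to 17, 8 to 14, 4 to 17 (17 without KO HDM 4) and 0 to 4 for the difference of HDM changes (4 without KO HDM 4, where 5.11% of all genes passed). That difference passed for 1 gene with array weights, with probe sets averaged per gene or with the replicate block, where 3.41%, 0.772% and 1.29% of all genes passed.

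Some differences changed sign, and apart from Ltb4r1, Pla2g4e, Pla2g5 and Ptgis none of these had passed. Ltc4s between genotypes under saline was 0.0079 with quantile normalization, 0.0039 with medians aligned, 0.0082 with array weights and 0.0262 without WT saline 2 and 3. Array weights gave -0.0034 for Ltc4s in WT lungs, -0.0032 for Hpgds between genotypes under HDM and 0.0579 for the Ptgs2 difference of HDM changes, and Lta4h had 0.0544 for the same difference without WT saline 2 and 3. The clock covariate gave -0.1206 for Lta4h in WT lungs. Between genotypes under HDM it gave -0.3703 for Alox5, -0.0024 for Alox5ap, 0.1532 for Ptgs2 and -0.043 for Ltb4r1, which had passed at 0.31. For the difference of HDM changes it gave -0.3462 for Alox5, -0.1369 for Alox5ap, 0.3085 for Ptgs2 and 0.1989 for Lta4h. In WT lungs it turned the sign of Pla2g4e (0.0634), Pla2g5 (0.134) and Ptgis (-0.1644), which had passed. Leaving out 1 array gave -0.0186 to 0.2538 for Alox5 and -0.1126 to 0.1324 for Hpgds between genotypes under HDM, -0.0466 to 0.0205 for Ltc4s under saline, -0.0617 to 0.063 for Ltc4s in WT lungs, -0.0231 to 0.1424 for Pla2g4a in KO lungs, and -0.0845 to 0.0243 for Lta4h and -0.1365 to 0.0503 for Ptgs2 in the difference of HDM changes. The cause was not tested. Vldlr was lower in KO saline than in WT saline lungs without WT saline 2 and 3 (-0.81, adjusted p = 0.0551) and in KO HDM than in WT HDM lungs with the clock covariate (-0.52, adjusted p = 0.549), without passing.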
